A study of Homo sapiens with 6 samples.

Results

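The genes described here serve amino acid supply and its stress response: the transcription factor ATF4 with its partners and targets, the enzymes of serine, one-carbon, asparagine and proline synthesis, amino acid transporters, and cytosolic tRNA synthetases. They were chosen by name as 32 genes, and each was read from its brightest probe set that carries a single gene symbol. MARS1 had no such probe set, since its 3 probe sets also carry the symbol of a microRNA, so 31 genes have values out of 19775 genes on the array. CHAC1 and ALDH1L2 stayed under the mean log2 of 5 required for testing, which left 29 of the 12317 tested genes.

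The samples were HCA-7 cells, an established human line from a colorectal cancer, cultured in type 1 collagen. One isolated line, cc3, forms cystic colonies and the other, sc1, forms spiky colonies. Total RNA of the collagen layer that holds the cells was taken at day 5, 10 and 15 and hybridised to Affymetrix U133 Plus 2.0 arrays, 1 array for each line and day, 6 in all. No treatment or genetic change was listed for either line. Each colony shape is represented by 1 line, so shape and line cannot be told apart. In the comparison of the lines, the days of a line stand in for replicates. In the comparisons of days, the lines do so, with 1 array for each line and day. The labels name no separate cultures, so the p-values reflect only how far these arrays scatter, technical scatter included.

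When amino acids run short, the kinase GCN2 phosphorylates the translation factor eIF2, general translation slows, and translation of the ATF4 messenger RNA rises. ATF4 then binds C/EBP-ATF response elements and switches on genes for amino acid synthesis, uptake and tRNA charging, together with regulators such as DDIT3 and TRIB3. Serine made from glycolytic intermediates by PHGDH, PSAT1 and PSPH also feeds the folate cycle through SHMT2 and MTHFD2, a route often raised in tumour cells.

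The response element was looked for as the letters TGATGNAA on both strands, in windows from 250 bases before to 50 bases after each annotated start in RefSeq (GRCh38.p14). Of the 32 genes 27 had windows, and 12 of them (44.4%) held the letters in at least 1 window. The 27 include CHAC1, which was not tested, and MARS1, which had no value. Of 10003 tested genes with windows 2.7% held the letters, and of all 27305 genes with windows 4.46%. Counted by window it was 12 of 44 (27.3%), against 1.98% of 14455 for tested genes and 3.62% of 35116 for all genes. The letters are part of what is known of ATF4 targets, many of the genes were listed as such targets, and a match is not a shown binding site. The matches of the 7 genes that fell at day 15 and that of CHAC1, are shown on the strand on which the element reads forward, with the element in capitals.

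ASNS, chr7:97872458-97872487, minus strand: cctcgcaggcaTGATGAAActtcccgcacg
AARS1, chr16:70289675-70289704, plus strand: tctaacttggcTGATGCAActgcgagaaaa
GARS1, chr7:30594834-30594863, minus strand: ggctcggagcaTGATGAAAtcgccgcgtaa
NARS1, chr18:57621804-57621833, minus strand: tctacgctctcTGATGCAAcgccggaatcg
TARS1, chr5:33440956-33440985, minus strand: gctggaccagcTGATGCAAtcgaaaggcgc
SLC1A5, chr19:46784893-46784922, minus strand: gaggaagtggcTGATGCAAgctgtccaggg
SLC3A2, chr11:62881725-62881748, minus strand: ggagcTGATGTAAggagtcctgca
CHAC1, chr15:40953251-40953280, minus strand: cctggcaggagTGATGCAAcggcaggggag

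The sixth base of the element was C in AARS1, NARS1, TARS1, SLC1A5 and CHAC1, A in ASNS and GARS1, and T in SLC3A2. The element of ASNS lies at bases -68 to -61 from the start, in gene orientation, and that of CHAC1 at -209 to -202, whereas those of NARS1, TARS1 and SLC3A2 lie just past the start, at 15 to 22, 3 to 10 and 38 to 45. ATF3, CARS1, SLC1A4 and MARS1 also held the letters. Asparagine synthetase, the enzyme encoded by ASNS, is the textbook gene of this response, and its 250 bases before the start (chr7:97872409-97872658, minus strand) show where the element sits.

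ASNS upstream: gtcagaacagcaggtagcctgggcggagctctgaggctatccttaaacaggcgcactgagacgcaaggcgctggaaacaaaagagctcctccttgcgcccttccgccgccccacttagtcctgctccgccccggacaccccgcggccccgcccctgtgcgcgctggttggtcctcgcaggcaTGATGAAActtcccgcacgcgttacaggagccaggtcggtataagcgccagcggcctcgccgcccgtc

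The windows of DDIT3, TRIB3, PSAT1, PHGDH, MTHFD2 and SLC7A5 did not hold these letters. Among the genes that fell at day 15, 7 of 16 with windows held them, and among the other tested genes of the list 3 of 9 did.

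The 6 arrays had similar medians, 5.18 to 5.34 (log2), and 0 values were missing. The epithelial markers EPCAM, CDH1, KRT8, KRT18, KRT19 and VIL1 lay at 6.49 to 12.79, while the colonic markers KRT20, CDX2, CDH17 and LGALS4 stayed at 2.44 to 5.14, near background. The 8 fibroblast markers averaged 4.19 to 4.65 per array, the 6 leukocyte markers 4.27 to 4.90 and the 4 endothelial markers 3.73 to 4.42, and PTPRC, LUM and KDR were at or under 3.25 on every array. Some markers of these lists were brighter: COL1A1 at 6.4 to 8.12, FBLN1 at 5.96 to 6.29, CSF1R at 4.82 to 6.67 and CORO1A at 4.52 to 6.04. In bulk RNA, fewer cells of a type and less RNA per cell cannot be told apart.

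**Figure D1:**
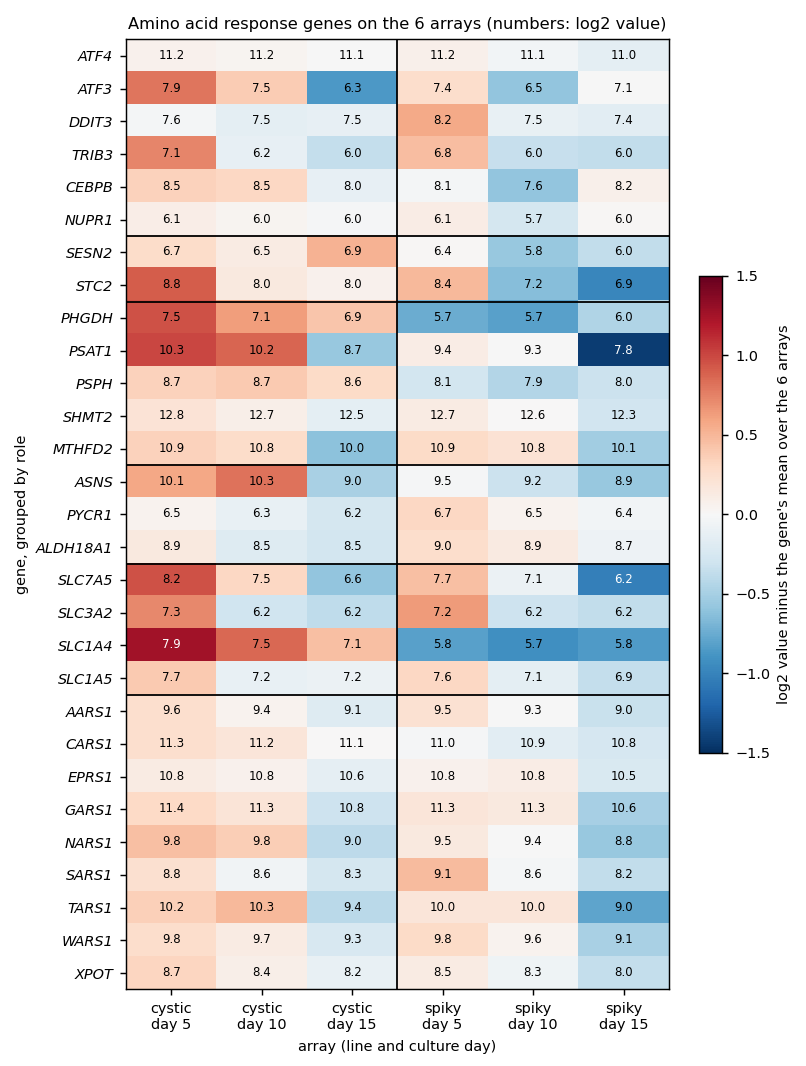
Log2 values of the 29 tested amino acid response genes (rows, grouped by role) on the 6 arrays (columns), coloured by the difference from the gene's own mean over the arrays. The right column of each line, day 15, is blue for most genes, and PHGDH, PSPH and SLC1A4 are red on all cystic and blue on all spiky arrays.

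The comparison of the spiky with the cystic line asked which of these genes differ between the lines across the culture. All 3 enzymes of the serine branch, PHGDH, PSAT1 and PSPH, were lower in the spiky line, as were the neutral amino acid transporter gene SLC1A4, the secreted glycoprotein gene STC2 and the cysteinyl-tRNA synthetase gene CARS1. The other 23 did not pass. Thus 6 of 29 passed as lower (20.7%) and 0 as higher, against 7.74% and 3.65% of all tested genes (limma, Benjamini-Hochberg adjusted p under 0.05). Centring each array on its median gave 5 lower members against 6.52% lower and 5.22% higher among all genes. The median difference was -0.17 over the 29 genes and -0.03 over all tested genes, and 17 of the 29 (58.6%) were lower in the spiky line at all 3 days, against 25.7% of all tested genes. The leukocyte markers averaged 4.64 to 4.90 on the cystic and 4.27 to 4.69 on the spiky arrays, and the epithelial marker VIL1 was the one cell marker that passed, at -0.68 (limma adjusted p = 0.0411). The 3' over 5' difference of the ACTB control probe sets, a sign of RNA integrity, was 2.83, 3.18 and 3.28 at day 5, 10 and 15 in the cystic line, against 2.73, 2.74 and 3.10 in the spiky line. That of GAPDH was 0.65, 0.79 and 0.63 against 0.60, 0.63 and 0.49, so both were lower on the spiky array at each day. The part of these in the differences was not tested.

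PHGDH encodes the dehydrogenase that starts serine synthesis. Its log2 values at day 5, 10 and 15 were 7.45, 7.12 and 6.91 in the cystic line and 5.74, 5.68 and 6.04 in the spiky line. The lines did not overlap, and the spiky line was 2.53-fold lower (log2 difference -1.34, SE 0.20, limma adjusted p = 0.00363). The gap was -1.71 at day 5, -1.44 at day 10 and -0.86 at day 15.

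PSAT1 encodes the aminotransferase of the next step. It stood at 10.27, 10.15 and 8.71 in the cystic line and at 9.39, 9.27 and 7.85 in the spiky line. At each day the spiky array was lower, by 0.86 to 0.88, while the lines overlapped because both fell late (log2 difference -0.87, SE 0.10, limma adjusted p = 0.00116).

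PSPH encodes the phosphatase that releases serine. Its values were 8.70, 8.74 and 8.64 in the cystic line and 8.08, 7.91 and 8.03 in the spiky line, with no overlap and little change over the days. The spiky line was 1.61-fold lower (log2 difference -0.69, SE 0.12, limma adjusted p = 0.00867). The enzymes that take serine into the mitochondrial folate pathway did not pass: SHMT2 differed by -0.10 and MTHFD2 by -0.01 (limma adjusted p = 0.236 and 0.974).

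SLC1A4 showed the widest gap between the lines. It encodes an exchanger of serine, alanine and other small neutral amino acids. Its values were 7.93, 7.53 and 7.12 in the cystic line and 5.85, 5.74 and 5.82 in the spiky line, which was 3.29-fold lower without overlap (log2 difference -1.72, SE 0.19, limma adjusted p = 0.00101). Its 5 probe sets were not of one kind: the chosen one carries the suffix _x_at, given where probes may also bind other transcripts, others were at -1.76 and -2.31, one of mean 5.72 was at 0.07, and one of mean 4.39 was at 0.16. The remaining transporter genes did not pass, with SLC7A5 at -0.45, SLC1A5 at -0.12 and SLC3A2 at -0.02 (limma adjusted p from 0.0901 to 0.957).

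STC2, which encodes a secreted glycoprotein induced under cell stress, was at 8.79, 8.03 and 7.95 in the cystic line and at 8.37, 7.24 and 6.90 in the spiky line. The lines overlapped over the days, and at each day the spiky array was the lower (log2 difference -0.75, SE 0.16, limma adjusted p = 0.0166). CARS1 was at 11.31, 11.24 and 11.06 against 11.04, 10.90 and 10.81, a small gap without overlap (log2 difference -0.28, SE 0.07, limma adjusted p = 0.0301).

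**Figure D2:**
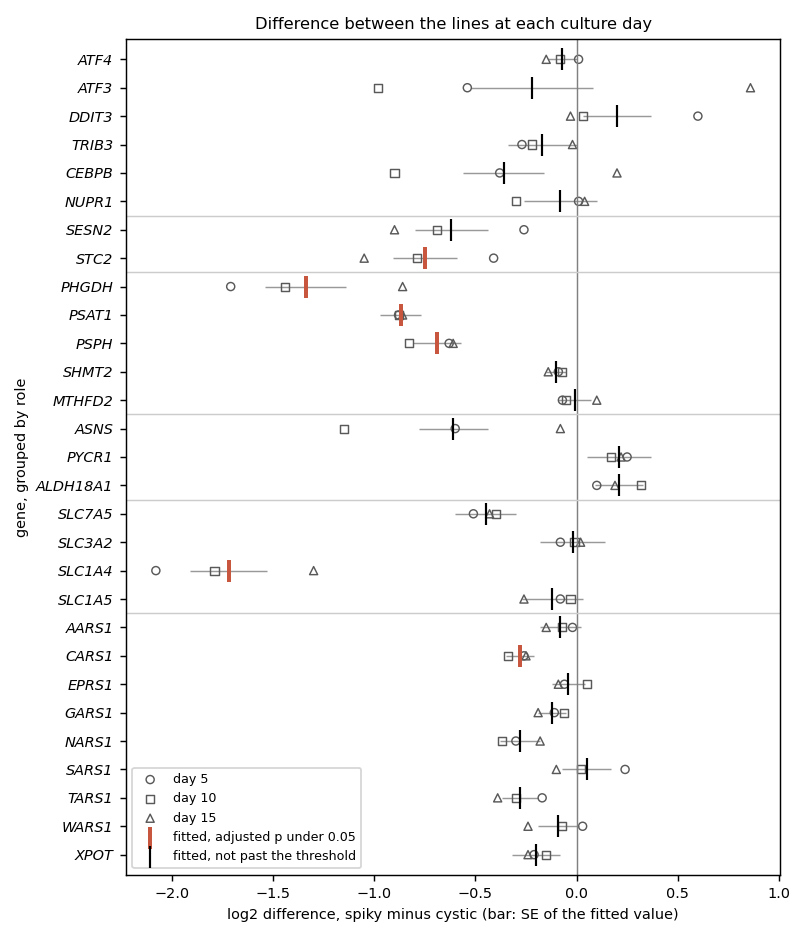
Log2 difference between the spiky and the cystic line for each of the 29 genes (rows), at day 5 (circles), 10 (squares) and 15 (triangles), with the fitted difference as a vertical mark and its SE as a grey bar. The 6 red marks, those past the threshold, all lie left of 0, from SLC1A4 at -1.72 to CARS1 at -0.28.

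ATF4 itself and its regulators did not pass between the lines. ATF4 was at 11.19, 11.16 and 11.12 in the cystic line and at 11.20, 11.08 and 10.98 in the spiky line (log2 difference -0.07, SE 0.07, limma adjusted p = 0.604). DDIT3, the stress-induced factor also called CHOP, differed by 0.20, and TRIB3, a pseudokinase that binds ATF4, by -0.17. ATF3, an early stress-induced factor, changed its sign over the days, from -0.54 and -0.98 to 0.86. CEBPB, a dimer partner of ATF4, and NUPR1, a small stress-induced nuclear protein, were at -0.36 and -0.08. SESN2, a sestrin that senses leucine, lay lower on all 3 spiky arrays (6.42, 5.83 and 6.03 against 6.68, 6.53 and 6.93) but missed the threshold (log2 difference -0.62, limma adjusted p = 0.0658). ASNS did so too, at -0.60, -1.15 and -0.08 by day (limma adjusted p = 0.0568). The proline synthesis genes PYCR1 and ALDH18A1 were both at 0.21.

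The tRNA synthetase genes other than CARS1 differed by -0.28 (TARS1 and NARS1) to 0.05 (SARS1), and XPOT, the exporter of tRNA from the nucleus, by -0.20. A second XPOT probe set, of mean 8.31 against 8.34, was at -0.61 between the lines. When 1 array was left out, the other array of that day had no partner. Leaving out either array of a day thus gave the same fitted difference between the lines. The calls of PHGDH, PSAT1 and SLC1A4 passed with any 1 array left out, with limma adjusted p of at most 0.041. PSPH and CARS1 lost theirs without the day 5 or the day 10 array of either line (0.0574 to 0.0794 and 0.163 to 0.258), and STC2 without either day 10 array (0.0649 and 0.0686). In all 3 genes passed without the cystic or the spiky day 10 array, where 4.04% and 4.08% of all tested genes were lower. Without the cystic or the spiky day 15 array 10 passed, where 11.3% and 11.4% were lower.

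None of the listed genes with values lies on chromosome 13 or 21, where the median difference of all tested genes was -0.69 and -0.59. PSAT1 lies on chromosome 9 among genes that differ the same way: all 10 of its nearest tested neighbours, 5 on each side, had negative differences, with a median of -0.39, and 4 of them passed as lower, among them GNAQ at -0.69 and CEP78 at -0.80. The median of the 519 tested genes of chromosome 9 was -0.16. The neighbours of PHGDH, PSPH, SLC1A4, STC2 and CARS1 had medians of 0.02, 0.03, 0.19, 0.17 and -0.08. The part of the chromosome region in the difference of PSAT1 was not tested.

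Culture time was the larger source of change. The comparison of day 15 with day 5 asked which genes changed over the culture, taken as the mean change of the lines. Of the 29 genes 17 fell (58.6%) while 0 rose, against 21.9% of all tested genes that fell and 10.4% that rose. The falls took in 8 of 9 tested genes of tRNA charging and export, 3 of 4 transporters, 3 of 5 serine and folate enzymes, ASNS, STC2 and TRIB3. All 29 fitted differences were negative, as were 60.4% of those of all tested genes. Their median was -0.50 against -0.11 over all tested genes, and the medians were -0.50 in the cystic and -0.55 in the spiky line alone. With cyclic loess between arrays 13 fell and 0 rose, against 16.7% and 13.6% of all genes, and 27 of 29 differences were negative. With each array centred on its median it was 19 and 0, against 28.0% and 8.68%. The 3' over 5' difference of ACTB was 2.83 and 2.73 at day 5 and 3.28 and 3.10 at day 15 in the cystic and spiky line, and that of GAPDH 0.65 and 0.60, then 0.63 and 0.49. Among the cell markers KRT18 was at -0.66, KRT8 at -0.48 and COL1A1, a collagen gene of fibroblasts, at 1.38 (limma adjusted p = 0.00106, 0.0412 and 0.00203), while EPCAM, CDH1, KRT19 and VIL1 did not pass. The part of either in these falls was not tested.

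PSAT1 fell most, 2.93-fold (log2 difference -1.55, SE 0.12, limma adjusted p = 0.000266), with -1.56 in the cystic and -1.54 in the spiky line. The other serine branch enzymes did not follow it: PHGDH was at -0.11 and PSPH at -0.06 (limma adjusted p = 0.767 and 0.810), with PHGDH at -0.54 in the cystic and at 0.31 in the spiky line. MTHFD2, the mitochondrial dehydrogenase of the folate pathway, was at 10.93, 10.85 and 9.97 in the cystic and at 10.87, 10.80 and 10.06 in the spiky line. Both day 15 arrays lay below all others, a 1.84-fold fall (log2 difference -0.88, SE 0.10, limma adjusted p = 0.000671). SHMT2, the serine hydroxymethyltransferase of the mitochondrion, fell by 0.38 (SE 0.06, limma adjusted p = 0.00206), from 12.82, 12.70 and 12.47 in the cystic and 12.73, 12.62 and 12.33 in the spiky line. ALDH1L2, a later enzyme of the same pathway, was near background on every array, at 3.46 to 4.53.

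SLC7A5 and SLC3A2 encode the light and heavy chain of the LAT1 transporter of large neutral amino acids. SLC7A5 was at 8.19, 7.54 and 6.64 in the cystic and at 7.68, 7.14 and 6.21 in the spiky line, lower at each successive day in both. It fell 2.85-fold (log2 difference -1.51, SE 0.18, limma adjusted p = 0.000882). SLC3A2 was at 7.26, 6.25 and 6.16 and at 7.18, 6.24 and 6.18, nearly the same in the lines at each day. Its early step of -0.98 did not pass (limma adjusted p = 0.144). It fell 2.07-fold (log2 difference -1.05, SE 0.20, limma adjusted p = 0.00461). SLC1A5, the glutamine transporter also called ASCT2, was at 7.66, 7.16 and 7.18 and at 7.58, 7.13 and 6.92 (log2 difference -0.58, limma adjusted p = 0.0399). SLC1A4 did not pass on its chosen probe set, with -0.81 in the cystic and -0.03 in the spiky line. Its other probe sets differed: one of nearly the same mean (6.65 against 6.66) was at -1.07, from 8.26 to 6.87 and from 6.24 to 5.49. Of those with a mean of 5.72 one was at -0.94 and one at -0.08, and the dimmest, of mean 4.39, was at 0.81.

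**Figure D3:**
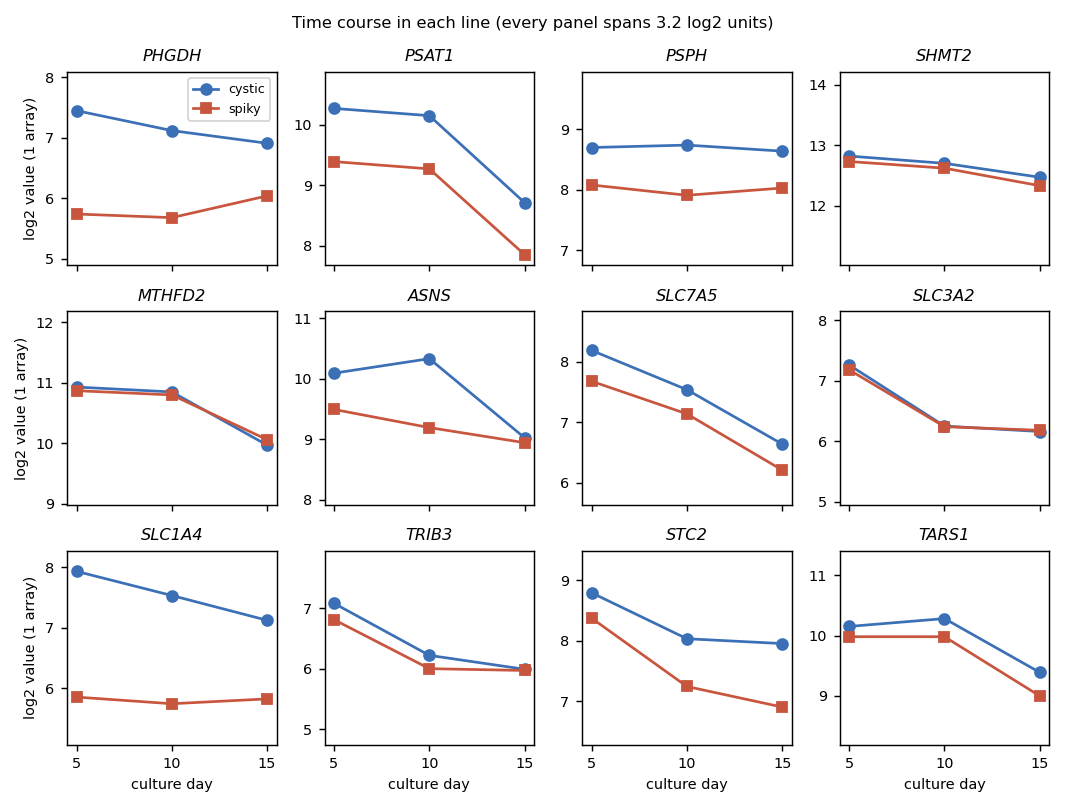
Log2 values by culture day for 12 of the genes, with cystic arrays as blue circles and spiky arrays as red squares, 1 array per point. PHGDH, PSPH and SLC1A4 keep a gap between the lines, PSAT1 keeps a gap of 0.86 to 0.88 while both lines fall after day 10, and SLC3A2 and MTHFD2 run nearly together.

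The tested synthetase genes fell, apart from CARS1, which was at -0.24 (limma adjusted p = 0.0562). These enzymes load each amino acid onto its tRNA. GARS1, for glycine, was at 11.42, 11.32 and 10.81 in the cystic and at 11.30, 11.27 and 10.62 in the spiky line. TARS1, for threonine, was at 10.15, 10.28 and 9.39 and at 9.98, 9.98 and 9.0. In both genes the day 5 and day 10 arrays lay close together and the day 15 arrays apart from them (log2 differences -0.65 and -0.87, limma adjusted p = 0.00117 and 0.00123). NARS1, for asparagine, was at 9.84, 9.76 and 9.0 and at 9.54, 9.39 and 8.82, a fall of 1.72-fold (limma adjusted p = 0.00231). WARS1, for tryptophan, was at 9.82, 9.67 and 9.31 and at 9.84, 9.60 and 9.07. SARS1, for serine, was at 8.84, 8.55 and 8.33 and at 9.07, 8.57 and 8.23. Both fell stepwise in each line, by 0.64 and 0.68 (limma adjusted p = 0.00533 and 0.00948).

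AARS1, for alanine, was at 9.56, 9.36 and 9.12 in the cystic and at 9.54, 9.30 and 8.97 in the spiky line (log2 difference -0.50, limma adjusted p = 0.0145). EPRS1, which loads glutamate and proline, was at 10.83, 10.77 and 10.57 and at 10.77, 10.82 and 10.48 (-0.28, limma adjusted p = 0.0469). XPOT was at 8.66, 8.43 and 8.23 and at 8.46, 8.28 and 7.98 (-0.45, limma adjusted p = 0.0443). These falls were small, the last pair lay close to the threshold, and a second XPOT probe set of nearly the same mean (8.31 against 8.34) was at 0.10.

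ASNS was at 10.09, 10.33 and 9.02 in the cystic line and at 9.49, 9.19 and 8.94 in the spiky line, so the lines met at day 15 (log2 difference -0.81, SE 0.21, limma adjusted p = 0.0193). STC2 fell 2.22-fold (-1.15, limma adjusted p = 0.00291), and its second probe set was at -1.27. TRIB3 was the regulator that passed: it was at 7.08, 6.22 and 5.99 and at 6.81, 6.0 and 5.97, a fall of 1.96-fold (-0.97, SE 0.20, limma adjusted p = 0.00740). ATF4 was at -0.15 (SE 0.09, limma adjusted p = 0.228), DDIT3 at -0.41, CEBPB at -0.18, NUPR1 at -0.10 and SESN2 at -0.07. ATF3 had the same fitted difference as TRIB3, -0.97, but did not pass (SE 0.37, limma adjusted p = 0.0730), with -1.67 in the cystic and -0.27 in the spiky line, and its second probe set was at 0.36. PYCR1 and ALDH18A1 were at -0.33 and -0.38 without passing, and a second ALDH18A1 probe set (mean 8.41 against 8.73) was at -0.83 over time and at -0.17 between the lines, there opposite in sign to the chosen one. CHAC1, which encodes an enzyme that breaks down glutathione, was at 4.48 to 5.25 on the 6 arrays, near background, and no fold is given.

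The number of calls rested most on the day 5 arrays: without the spiky day 5 array 6 genes passed as lower against 4.21% of all genes, and without the cystic day 5 array 11 against 12.6%. PSAT1, MTHFD2, SLC7A5, GARS1, TARS1 and NARS1 were the 6 that passed with any 1 array left out, at limma adjusted p of at most 0.0464. ASNS lost its call without the cystic day 5, cystic day 15 or spiky day 5 array (0.0678 to 0.146), with differences of -1.20 to -0.41 over the arrays left out. TRIB3 and AARS1 lost theirs without either day 5 array (0.0684 and 0.0704, 0.0802 and 0.159). STC2, SHMT2, SLC3A2, SARS1 and WARS1 lost theirs only without the spiky day 5 array (0.0523 to 0.152), SLC1A5 and EPRS1 without any of 5 arrays, and XPOT without any of the 6.

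The steps of the time course asked when these falls took place. From day 5 to day 10 limma called 0 of the 29 genes, with 6 at an unadjusted p under 0.05, against 0.0162% of all tested genes, 0.00812% as lower and 0.00812% as higher. From day 10 to day 15 it called 9 as lower (31%) and 0 as higher, against 14% and 8.66% of all tested genes. The 9 were PSAT1, MTHFD2, SHMT2, ASNS, SLC7A5, TARS1, GARS1, NARS1 and WARS1. PSAT1, MTHFD2, TARS1 and GARS1 passed with any 1 array left out (limma adjusted p of at most 0.0444). SHMT2, SLC7A5 and NARS1 lost the call without either day 10 array (0.0531 to 0.165), ASNS without any of 4 arrays (0.057 to 0.36), and WARS1 without any of 5 (0.06 to 0.249). Without the cystic day 10 array 4 passed and without the spiky one 5, against 4.46% and 4.72% of all tested genes as lower. With cyclic loess 7 were called lower, against 11% lower and 10.7% higher of all genes. The steps share the day 10 arrays, so an error in those moves the steps in opposite directions. In all, 17 of the 29 had lower values at each successive day in both lines (17.0% of all tested genes did so). In either line 0 had higher values at each successive day, against 15.3% of all tested genes in the cystic and 15.6% in the spiky line.

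**Figure D4:**
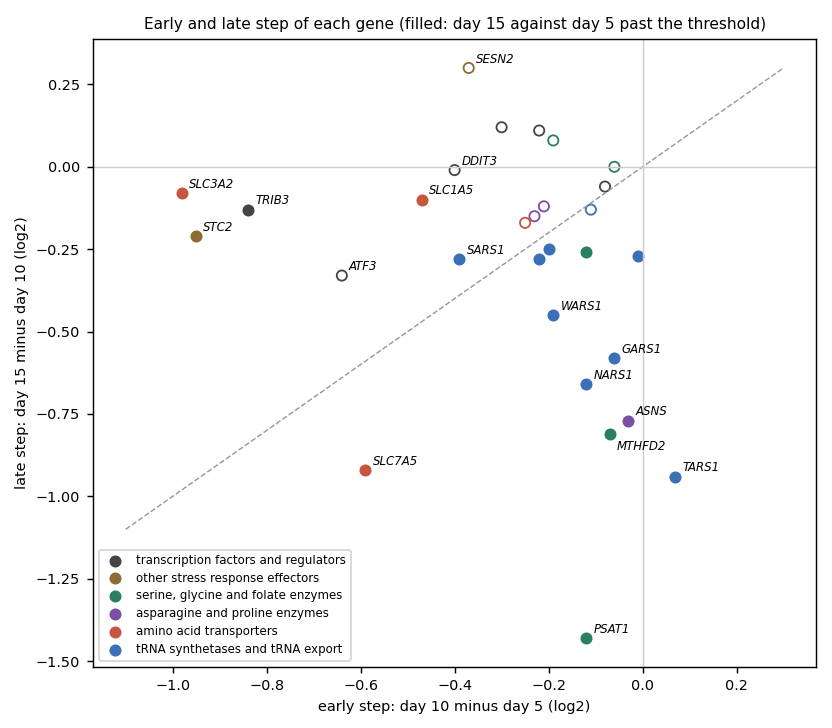
Fitted log2 difference of the early step (day 10 minus day 5, x axis) against the late step (day 15 minus day 10, y axis) for the 29 genes, coloured by role and filled where day 15 against day 5 passed. The dashed line marks equal steps: SLC3A2, STC2 and TRIB3 lie far above it, and PSAT1, TARS1, MTHFD2 and ASNS lie far below it, with the difference of the steps past the threshold for PSAT1 alone.

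The share of the fitted fall to day 15 that lay before day 10 is a description, since the early step itself was not called. It was 92.8% in SLC3A2, 86.5% in TRIB3, 82.4% in SLC1A5 and 82.2% in STC2. It was 7.7% in PSAT1, 8% in MTHFD2, 9.68% in GARS1 and 4% in ASNS, and the early step of TARS1 was 0.07. The share of ASNS averages unlike courses. Its early step was 0.24 in the cystic and -0.31 in the spiky line, and its late step -1.31 and -0.24. The late step minus the early step was tested in the same fit, a test added after these values were seen. It passed for 1 of the 29, PSAT1, at -1.31 (SE 0.21, limma adjusted p = 0.0386), against 0.39% of all tested genes in that direction and 0.666% in the other. TARS1 at -1.0 and MTHFD2 at -0.74 came next (limma adjusted p = 0.0567 and 0.0698), and SLC3A2 at 0.90 had the largest value in the other direction (0.184), so a difference in timing was called for PSAT1 alone. The call of PSAT1 was lost without either day 5 or either day 10 array (limma adjusted p 0.105 to 0.35).

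The slope over time was compared between the lines with a term for day as a number. It was called for 0 of the 29 genes by limma, 0 of them with an unadjusted p under 0.05, and for 0% of all tested genes. The largest difference in slope per 10 days was 1.40 in ATF3 (SE 0.66), where the cystic line fell from 7.94 through 7.52 to 6.27 and the spiky line went from 7.40 through 6.54 to 7.13. The slopes of PHGDH and SLC1A4 differed by 0.85 (SE 0.47) and 0.78 (SE 0.45), as their gaps narrowed from -1.71 to -0.86 and from -2.08 to -1.30. For SLC1A4 the narrowing depended on the probe set. One narrowed too, at 8.26, 7.46 and 6.87 in the cystic and 6.24, 5.59 and 5.49 in the spiky line. Another did not, at 7.36, 6.80 and 6.46 against 5.17, 4.33 and 4.20, the later spiky values lying near background. The test had a standard error of 0.19 to 0.66 for these genes.

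The remaining genes of the pathway were read from 7 lists of 137 genes, of which 114 were tested. Over all lists 50 fell (43.9%) and 9 rose (7.89%) at day 15 against day 5, against 21.9% and 10.4% of all tested genes. In the spiky line 9 (7.89%) were lower and 2 (1.75%) higher, against 7.74% and 3.65% of all tested genes, so the share that was lower lay at the background and the genes named for it are examples only. Without the spiky day 5 array the day 15 counts were 10 and 4 (4.21% and 3.2% of all tested genes), and without the cystic day 5 array 32 and 7 (12.6% and 5.8%). For the lines they were 4 lower and 0 higher without either day 5 array, and 5 and 0 without either day 10 array. Without the cystic or spiky day 15 array they were 16 and 9 or 15 and 8. Of all tested genes 3.06% were lower and 1.29% higher without the cystic day 5 array, and 3.31% and 1.23% without the spiky one. Without the cystic or spiky day 10 array it was 4.04% and 2.18% or 4.08% and 1.99%. Without the cystic or spiky day 15 array it was 11.3% and 6.22% or 11.4% and 5.98%.

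The other cytosolic synthetases, with their scaffold proteins and the exporter XPO5, fell at day 15 like those above, 11 of 12 with 0 rising. Their median was -0.76, and of all tested genes 21.9% fell and 10.4% rose. KARS1, for lysine, was at -0.75, and VARS1, for valine, at -0.88 (limma adjusted p = 0.00111 and 0.00183). Only 3 of them fell without the spiky day 5 array. LARS1, for leucine, and VARS1 were higher in the spiky line, at 0.54 and 0.39 (limma adjusted p = 0.00914 and 0.0469). With any 1 day 5 or day 10 array left out, 0 genes of this list passed as higher. Of 14 mitochondrial synthetases 7 fell, led by MARS2 at -1.16 and LARS2 at -0.88, and AARS2 was at 0.44, close to the threshold (limma adjusted p = 0.0498). Of these 0 passed without the spiky day 5 array, and 0 passed as higher with any 1 array left out other than the spiky day 15 array. CARS2 was lower in the spiky line, at -0.77.

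Of 21 other serine, glycine and folate genes 12 fell and 2 rose at day 15, with a median of -0.51. The mitochondrial folate carrier gene SLC25A32 fell by 1.71 and the thymidylate synthase gene TYMS by 0.71 (limma adjusted p = 0.000773 and 0.000928), while AMT, part of the glycine cleavage system, was at 1.48 and the sideroflexin SFXN3 at 0.38. With the spiky day 5 array left out 4 fell, and with the cystic one left out 7. The folate carrier SLC19A1 and the folate hydrolase GGH were lower in the spiky line, at -0.96 and -0.47 (limma adjusted p = 0.00930 and 0.0296), as was SHMT1. Of 19 other amino acid transporters 6 fell and 1 rose, where 21.9% of all tested genes fell and 10.4% rose: SLC38A1, a glutamine carrier, was at -0.92, the arginine carrier SLC7A1 at -0.51, and the taurine carrier SLC6A6 at 0.54. Without the spiky day 5 array 1 fell and 0 rose, and without the cystic one 3 fell. SLC7A1 and SLC6A6 were also lower in the spiky line, at -0.58 and -0.55. Of the 9 pathway genes lower in the spiky line, 3 lie on chromosome 13 or 21 (SLC19A1, SLC7A1 and CARS2).

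Other ATF4 partners and targets moved in both directions over time, with 4 of 20 higher and 3 lower at day 15, where 10.4% of all tested genes were higher and 21.9% lower. DDIT4, which restrains mTOR signalling and also responds to hypoxia, was at 3.08, and KLHL24 at 1.06 (limma adjusted p = 0.000461 and 0.000834), and SESN3 and the cytokine gene GDF15 also rose. The autophagy receptor gene SQSTM1 was at -0.83 and ATF5, a factor related to ATF4, at -1.24 (limma adjusted p = 0.000928 and 0.00245), and CTH, which makes cysteine from cystathionine, fell too. Without the spiky day 5 array 1 gene of this list fell and 3 rose. CTH was also lower in the spiky line, at -1.11 (limma adjusted p = 0.00493), and so was GDF15, at -0.70.

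Upstream of ATF4, 7 of 15 genes for eIF2, its kinases, exchange factor and phosphatases fell at day 15 and 0 rose. Of all tested genes 21.9% fell and 10.4% rose. The kinase genes did not pass. EIF2AK4, which encodes GCN2, was at -0.46 and EIF2AK3 at -0.58 (limma adjusted p = 0.222 and 0.0593). EIF2AK1 was at -0.18 and EIF2AK2 at 0.36 (limma adjusted p = 0.414 and 0.0565). EIF2S1, the phosphorylated subunit, was at -0.81, EIF2B2, part of the exchange factor, at -0.90, and GCN1, a partner of GCN2, at -0.45 (limma adjusted p = 0.000617, 0.00324 and 0.0145). Without the spiky day 5 array 1 of them fell, and without the cystic one 4. Between the lines limma called 0 of these 15 genes, with 2 at an unadjusted p under 0.05. Of 13 other genes of amino acid synthesis and breakdown 4 fell and 1 rose, against the same 21.9% and 10.4%. Their median was -0.02, against -0.11 over all tested genes. ASS1, for arginine synthesis, rose at 2.43, and GOT2 at -0.66 and ASL at -0.70 were among the falls. Without the spiky day 5 array 0 of these passed in either direction, and without the cystic one 2 fell. OAT, for ornithine, was lower in the spiky line, at -0.46.

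**Figure D5:**
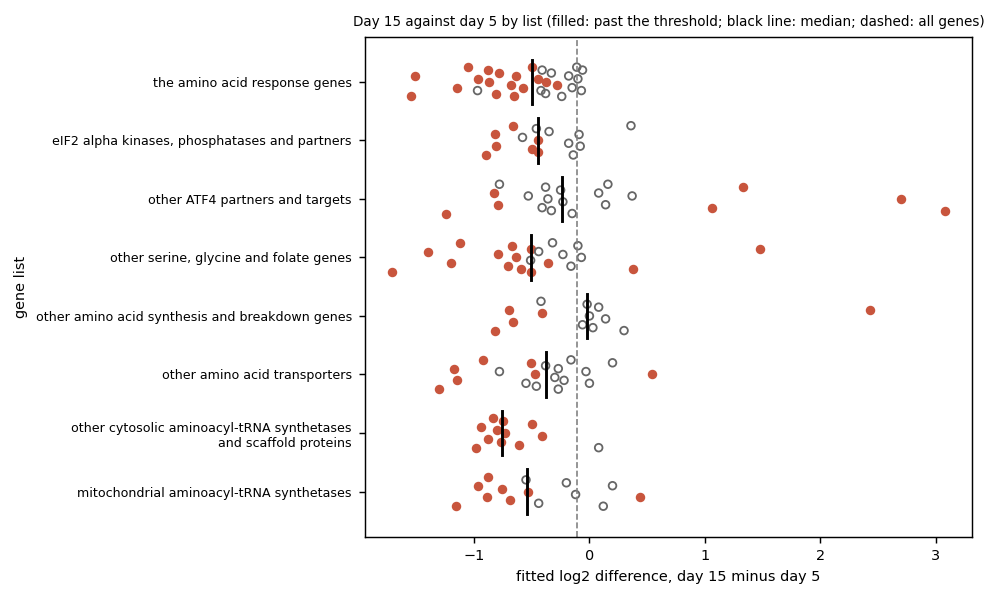
Fitted log2 difference of day 15 against day 5 for the 29 amino acid response genes and for the 7 lists of other pathway genes (rows), 1 point per gene, filled where limma passed, with each list's median as a black line and the median of all tested genes (-0.11) as a dashed line. The cytosolic synthetases sit furthest left, with a median of -0.76, and DDIT4, SESN3 and ASS1 lie far to the right.

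Further probe sets of the genes that passed mostly moved alike. PSAT1's second probe set was at -0.63 between the lines and at -1.31 over time, and PSPH's second bright one at -0.68 between the lines. Over time those of SHMT2 were at -0.52 and -0.81, of WARS1 at -1.0, of SARS1 at -0.67 and of EPRS1 at -0.56 and -0.20. The second probe set of MTHFD2 fell less, at -0.22, and that of TARS1, with a mean of 5.64, was at -0.07.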

How the data were processed

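The authors deposited log2 values per probe set, and the submitters' processing notes name RMA. Its settings and any genome build were not given in the sources used here. Of 54675 probe sets 41097 carried 1 gene symbol, 1801 several and 11777 none per the platform's annotation table, and 41043 were given current symbols through RefSeq (GRCh38.p14). Each gene was represented by its brightest single-symbol probe set. Genes whose mean log2 reached 5 or more entered limma 3.58.1 (R 4.3.3) with an intensity trend, fitted to the 6 arrays together with terms for day (3 levels) and line (2 residual degrees of freedom), two-sided, with Benjamini-Hochberg adjustment over all 12317 tested genes and a threshold of 0.05. Slopes came from a fit with day as a number. The fit was checked on simulated data drawn from its own fitted spread, with errors independent between arrays. Such data cannot show how the fit handles scatter shared between arrays. Precision is limited by the number of arrays, since there is no read count.

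The members and lists were chosen with earlier results of these data known. Named were all members and, per list of other pathway genes, the genes of smallest p that passed per comparison, up to 2 in each direction. SESN3, GDF15, SHMT1, CTH (over time), GCN1, the eIF2 kinase genes, XPO5, GNAQ and CEP78 were named after their values were seen. Alternatives covered the dim-gene filter, the probe set, array scaling, the variance prior, the model terms and each array left out. Figures used matplotlib 3.10.9.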

Additional observations from a re-analysis of the deposited data

How the results depend on the processing

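Of the counts of members called, those below moved by more than 1.5 times under an alternative. The share of all tested genes called lower moved too. Between the lines it was 7.74%, and 0.43% without culture day. For day 15 against day 5 it was 21.9%, and 8.37% without line. For day 10 against day 5 it was 0.00812%, and 2.46% or 2.39% without the cystic or spiky day 15 array. For day 15 against day 10 it was 14%, 11.8% without _x_at and _s_at probe sets and 1.78% without line. For the late minus early step it was 0.39%, and 1.44% at a mean of at least 6. Between the lines the count was 6, and without culture day as a replicate block it was 1 (SLC1A4); over the arrays left out it ranged from 3 to 10. For day 15 against day 5 the count was 17, and 10 without line in the model; with an array left out it was 6 to 16. For day 10 against day 5 it was 0, and 0 to 3 with an array left out. For day 15 against day 10 it was 9, then 5 without probe sets ending in _x_at or _s_at (19 members tested), 1 without line in the model and 4 to 9 with an array left out. The late minus early step, added after the data were seen, called 1 member: 0 at a mean log2 of at least 4, with no filter, with the mean of all probe sets, without _x_at and _s_at probe sets, without the intensity trend and without line in the model, 3 at a mean of at least 6, 2 with median centring, and 0 to 4 with an array left out. The slope difference called 0 members under each alternative run; a fit without day or line has no such term. Signs were followed member by member for the lines, day 15 against day 5 and day 15 against day 10. In these comparisons no member's call turned its sign under any alternative. The causes were not tested. Signals near background, at a log2 under 5, limit what CHAC1 and ALDH1L2 can show.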
